A study of Sus scrofa with 4 samples.

Results

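The genes described here are the enzymes and regulators of de novo lipogenesis, the building of fatty acids from acetyl-CoA, in cultured porcine intramuscular adipocytes. The list holds 10 genes, FASN, ACACA, ACACB, SCD, ACLY, ME1, SREBF1, ELOVL6, FADS1 and FADS2, and a gene was taken as measured where a non-control probe carried exactly its name. On the array, 27 probes carried 9 of these names, out of 34853 gene names in all, and no probe was named ELOVL6. SCD had 9 probes, FASN, ACACB and ACLY 3 each, ACACA, ME1, SREBF1 and FADS1 2 each, and FADS2 had 1.

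Each of 4 conditions was measured on 1 array. PIP cells are a porcine intramuscular preadipocyte line from the marbled longissimus muscle of a Duroc pig, used between passages 26 and 35 and kept in DMEM with 10% serum. The pMA were PIP cells given, from 4 days past confluence, a medium with 50 ng/mL insulin, 0.25 μM dexamethasone, 2 mM octanoate and 200 μM oleate, still with 10% serum, for 4 days. Stimulated pMA then received serotonin, whose dose the labels write as 100 μM per mL, or 2.5 µg/mL TNF-α, each for 12 h. All 3 pMA conditions thus share the hormones and the added fatty acids, and PIP cells lack them. RNA was pooled within a condition, the cells are 1 line from 1 animal, and a difference between arrays therefore has no replicate check and no p-value. In pooled bulk RNA, fewer cells of a type and less RNA per cell cannot be told apart.

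De novo lipogenesis starts in the cytosol, where ATP citrate lyase (ACLY) splits exported citrate into acetyl-CoA. Acetyl-CoA carboxylase (ACACA in lipogenic tissues, ACACB at the mitochondrial surface) makes malonyl-CoA, and fatty acid synthase (FASN) joins the units into palmitate with NADPH, part of which comes from malic enzyme (ME1). ELOVL6 lengthens palmitate to stearate, SCD puts in the first double bond, FADS1 and FADS2 desaturate polyunsaturated chains, and SREBF1 encodes the transcription factor that drives much of the pathway. Adipose tissue is the main site of this synthesis in the pig.

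Values are levels on a log2 scale, each the intensity of a probe relative to the 75th percentile of its own array, so a level compares arrays for 1 probe and not one probe with another. Ratios are differences of such levels, and 1 on this scale is 2-fold, the cutoff of the methods, which is also the rule of size for writing that a gene rose or fell. The probe with the highest mean level represents a gene. The only available error is technical: the same probe printed repeatedly on an array gives a standard deviation of 0.17 to 0.20 for a log2 ratio, depending on the comparison. It covers spots within an array and neither cultures nor RNA pools.

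The adipocyte label was compared with its markers first. In pMA, 5 of 10 adipocyte markers rose at least 2-fold over PIP cells, namely CD36 (log2 ratio 5.17), CIDEC (3.87), PLIN2 (3.13), PPARG (1.07) and FABP4 (at least 3.08, a lower bound because its PIP signal was dim), and none fell that far. Of all gene names with a ratio, 9.95% rose 2-fold in this comparison. These are the representing probes. The CD36 probes ran from 1.19 to 5.17 and the PPARG probes from 0.96 to 1.52. The second CIDEC probe read 0.75, under 2-fold. PLIN1 was not well above background on any array, ADIPOQ was well above it in PIP cells only, and CEBPA only after TNF-α. CCNB1 (-4.91) and CDK1 (-4.02), genes of dividing cells, fell, while MKI67 of the same list was at -0.41. After serotonin LPL (2.41) and CD36 (1.47) rose while FABP4 (-2.77) and CCNB1 (-1.05) fell. The other genes of dividing cells were above 0 after serotonin (CDK1 0.35, MKI67 0.43). After TNF-α CIDEC (1.94), FABP4 (1.45), LPL (1.28), CCNB1 (1.80) and CDK1 (1.52) rose, while MKI67 was at -0.06. COL1A1 of fibroblasts (-1.41), DES of muscle (-1.02) and PECAM1 of endothelium (-1.46) fell after serotonin. The DES probes ran from -2.59 to -0.55 and the PECAM1 probes from -1.46 to -0.44. Of the same lists, THY1 (-0.88) and VIM (-0.34) of fibroblasts and KDR of endothelium (-0.76) were lower without reaching 2-fold. PDGFRB (0.27), PAX7 (0.39) and MYOG (-0.01) were not lower past the spot error. CDH5 of endothelium was dim on all arrays, and CD14 was the only leukocyte marker on the array. The summed level of the adipocyte markers, on the log2 scale, was 1.66 in PIP cells, 4.02 in pMA, 5.30 with serotonin and 4.51 with TNF-α. This sum is set by the brightest probes, on the serotonin array PLIN2 (4.42), LPL (3.41) and CD36 (2.65). It does not rank the arrays by how far the cells had become adipocytes. Of the muscle markers, MYOD1 and MYF5 were below background throughout while MYOG, DES and PAX7 were above it on all 4 arrays, and the part of these cell-state markers in the ratios below was not tested. The scanner marked 56.5% of probes as well above background in PIP cells and in pMA, 60.9% in the serotonin array and 66.0% in the TNF-α array.

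No lipogenic gene passed 2-fold on differentiation or after either stimulus. Of the 27 probes, 24 were well above background on all 4 arrays, 1 on some and 2 on none, and the last 3 all belong to ACACB. Between pMA and PIP cells 8 genes had a ratio and 0 rose or fell 2-fold, where 9.95% of all 18640 gene names with a ratio rose and 3.56% fell. After serotonin 9 had a ratio and 0 passed, beside 2.09% of all names that rose and 4.74% that fell, and after TNF-α again 0 of 9 passed, beside 2.22% and 1.34%. With scaling to the spike-in controls, ACACA (1.12) and FADS2 (1.05) passed 2-fold on differentiation. Set directly against each other, the serotonin and TNF-α arrays differed 2-fold in 1 of the 9, ACACA, which was higher after serotonin, where 1.83% of all names were higher and 5.08% lower. With so few genes, counts of 0 or 1 do not stand apart from these shares, and the description below is of sizes and of how the probes of a gene compare.

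**Figure D1:**
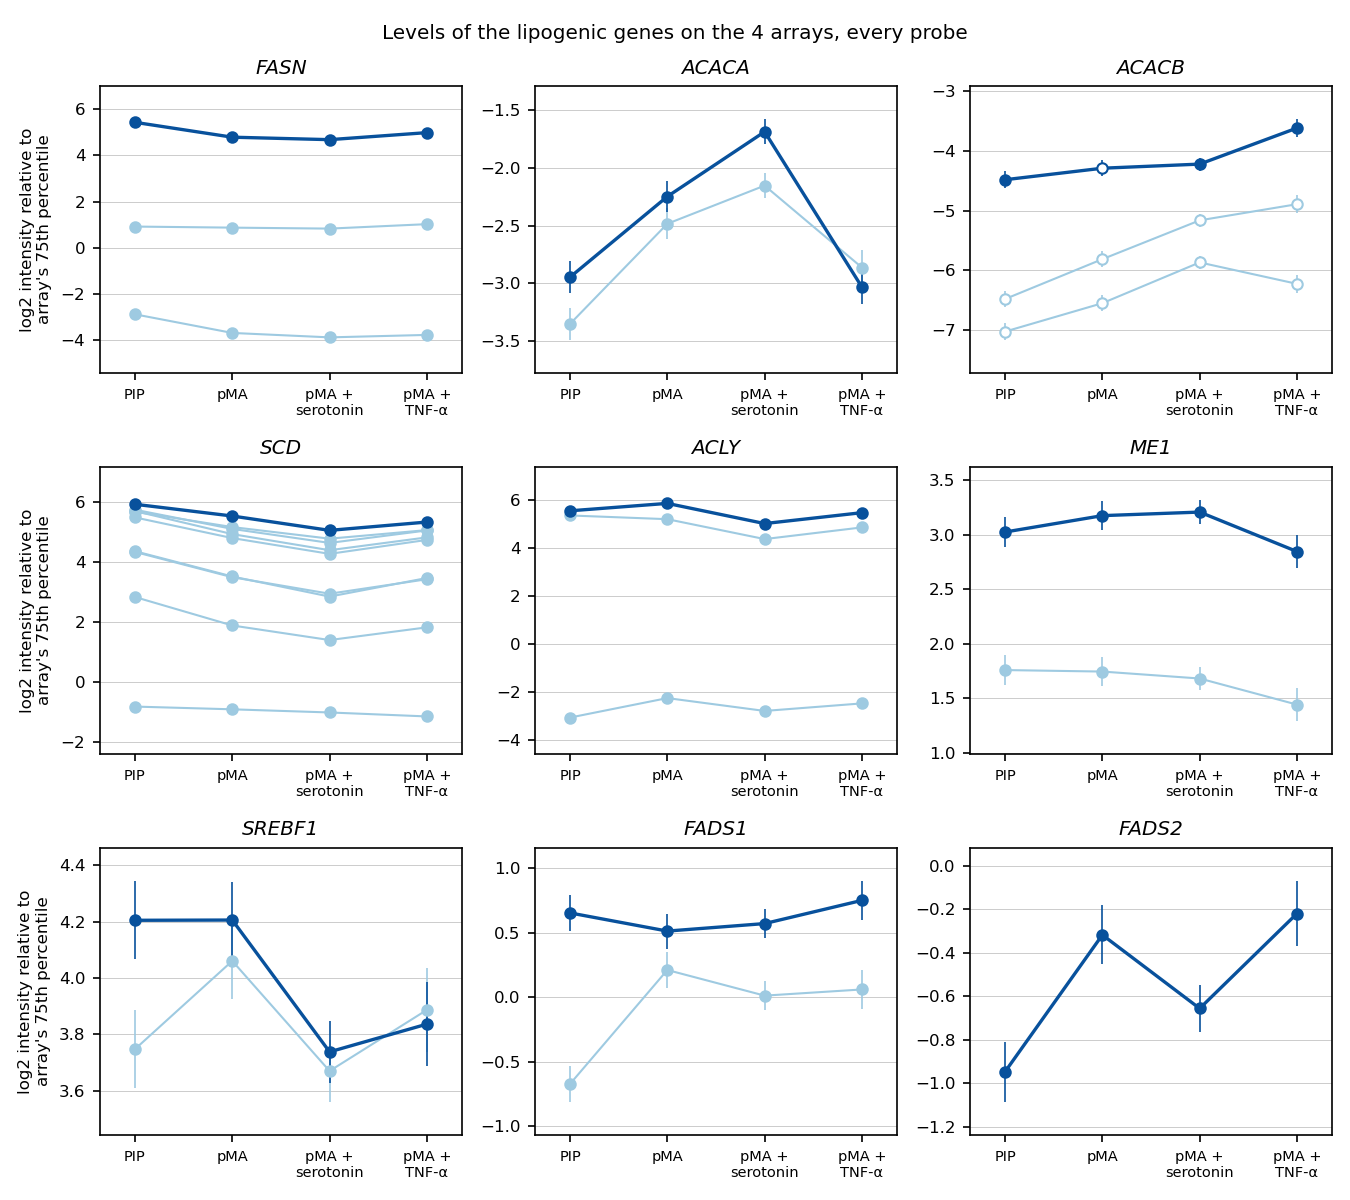
Each panel shows 1 gene, with the 4 arrays on the horizontal axis and the log2 intensity relative to the array's 75th percentile on the vertical axis, each panel on its own scale. Dark lines are the probe that represents the gene and pale lines its other probes. Open circles mark spots not well above background, and bars give the standard deviation of repeated spots. The representing probe of ACACA runs from -3.03 after TNF-α to -1.69 after serotonin. That of FADS1 stays between 0.51 and 0.75, while the other FADS1 probe runs from -0.67 in PIP cells to 0.21 in pMA.

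Among the representing probes, that of ACACA, the carboxylase that commits acetyl-CoA to fatty acid synthesis, had the widest range over the arrays. Some SCD probes that do not represent their gene spanned more, as at base 4494, from 4.37 in PIP cells to 2.85 after serotonin. The representing probe of ACACA starts at base 6661 of the transcript. Its levels were -2.95 in PIP cells, -2.25 in pMA, -1.69 after serotonin and -3.03 after TNF-α. TNF-α and PIP were the 2 low arrays and differed by 0.09, within the spot error, while pMA stood 0.70 above PIP and serotonin a further 0.56 above pMA. The second probe, at base 120, near the other end of the same transcript, had levels of -3.35, -2.48, -2.15 and -2.86 in the same order of conditions. Both probes thus placed serotonin highest and pMA next, although they exchanged the places of PIP and TNF-α. Their sequences, shown because they are the separate measurements behind this gene and share no run of 16 bases, are given in lower case:
ACACA at base 120: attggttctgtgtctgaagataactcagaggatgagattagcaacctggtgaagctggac
ACACA at base 6661: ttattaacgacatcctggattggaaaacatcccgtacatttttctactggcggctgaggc

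As ratios, ACACA was higher in pMA than in PIP cells by 0.70 at base 6661 and 0.87 at base 120. It was higher after serotonin than in unstimulated pMA by 0.56 and 0.33, and lower after TNF-α by 0.79 and 0.38, written as log2 ratios of -0.79 and -0.38. All 6 of these ratios exceeded the spot error. The array of unstimulated pMA enters each of them, so its own error moves all 3 comparisons together. The serotonin and TNF-α arrays, which do not need it, differed by 1.35, or 2.55-fold, at base 6661 and by 0.71 at base 120. Of all gene names, 99.3% had a lower ratio than that at base 6661 in that comparison, and 2.82% had a lower one after TNF-α. The ratios at base 120 stood out less. Its 0.71 lay near the 95th percentile of all gene names (0.70), and its -0.38 after TNF-α near the 11th (-0.38). The probes were faint, with intensities of 66.7 to 176 at base 6661, and with another background correction, normexp, the 1.35 became 0.79 and no longer passed 2-fold. All 9 ways of processing kept the direction of ACACA in all 4 comparisons. The 9 include the one used here. For a probe bright on all arrays, the other filters on dim probes return the same value, so part of this agreement is fixed.

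The 3 gene symbols whose levels ran closest to those of ACACA over the 4 arrays, out of 4625 compared by the distance between centred levels, were HOXC4 (distance 0.08), SLC5A4 (0.20) and PDCD4 (0.22). HOXC4, a homeobox transcription factor, had log2 ratios of 0.61 in pMA against PIP cells, 0.59 after serotonin and -0.79 after TNF-α. With 4 arrays such likeness is only a description.

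ACACB, the carboxylase whose malonyl-CoA restrains mitochondrial fatty acid uptake, was close to the detection limit. Its probes at bases 6422 and 7007 were not well above background on any array. The probe at base 8159 had levels of -4.49 in PIP cells, -4.29 in pMA, where the scanner called it dim, -4.23 with serotonin and -3.62 with TNF-α. TNF-α was the high array, by 0.60 over serotonin, and the smaller steps between the others were within the spot error. Against unstimulated pMA the ratio after TNF-α was at least 0.67, a lower bound that came to 0.04 with normexp, and after serotonin it was at least 0.07. Between the stimulated arrays ACACB was lower after serotonin by a log2 ratio of -0.60, opposite in sign to the 1.35 of ACACA.

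ACLY, the enzyme that supplies cytosolic acetyl-CoA, was lower after serotonin at each of its 3 probes. The representing probe, at base 4288, had levels of 5.53 in PIP cells, 5.84 in pMA, 5.00 after serotonin and 5.46 after TNF-α. Serotonin was the lowest array by 0.45, and PIP and TNF-α differed by less than the spot error. The log2 ratios after serotonin were -0.84 at base 4288, -0.83 at base 4013 and -0.53 at base 714, and after TNF-α -0.39, -0.34 and -0.22, all past the spot error. Of all gene names, 6.94% had a lower ratio after serotonin. Over the 9 ways of processing the serotonin ratio lay between -0.84 and -0.71 and the TNF-α ratio between -0.47 and -0.28.

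On differentiation the ACLY probes did not give 1 direction. They read 0.31, -0.15 and 0.81 from base 4288 to base 714, the last a faint probe with intensities of 61.9 to 101.0, and the value of the representing probe turned to -0.04 after scaling to the array median. The probe at base 4288 was drawn from another transcript record than the other probes. The probe at base 714, the one that was highest in pMA relative to PIP cells, reads:
ACLY at base 714: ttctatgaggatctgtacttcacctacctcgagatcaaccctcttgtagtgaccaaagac

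**Figure D2:**
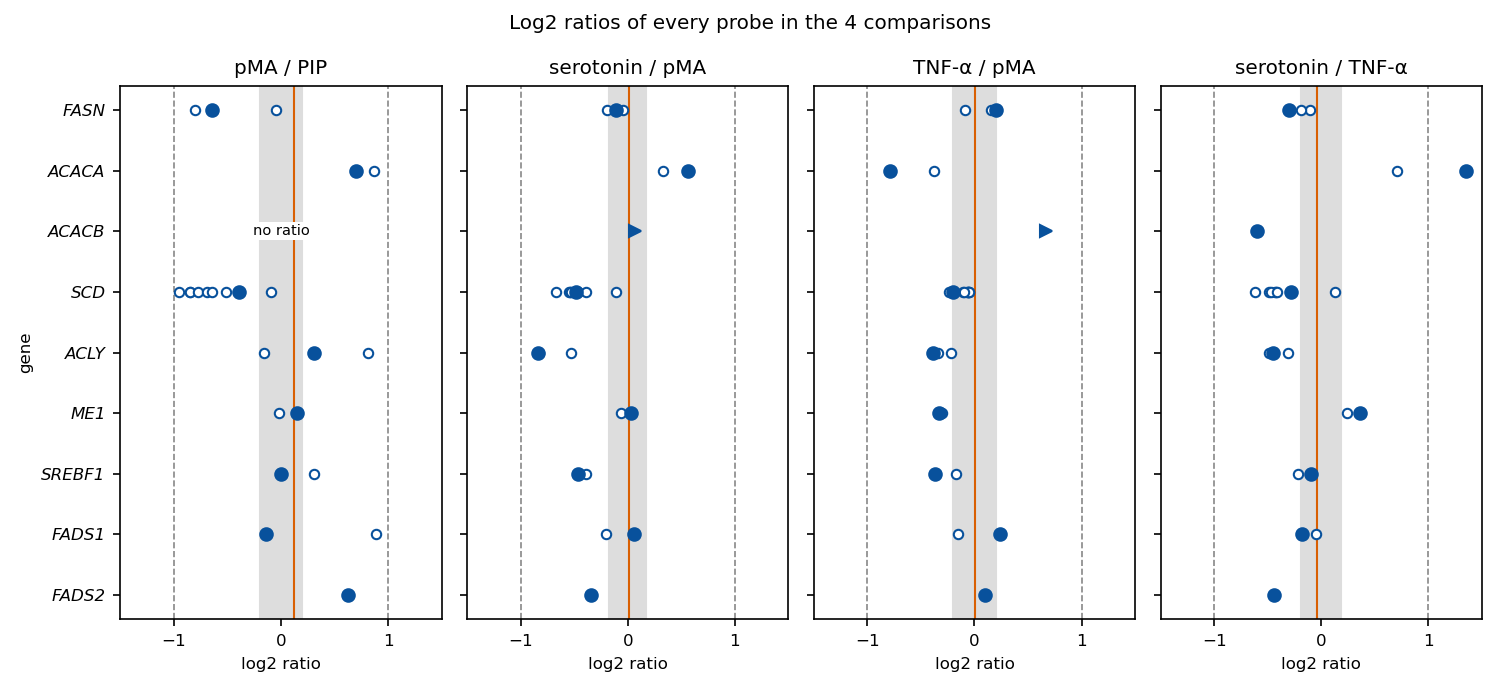
Log2 ratios on the horizontal axis of every probe with a ratio, 1 gene a row and 1 comparison a panel. Filled symbols are the probe representing the gene, open circles its other probes and triangles lower bounds; the grey band is the spot error, the orange line the median of all gene names and the dashed lines 2-fold; only the ACACA probe at 1.35 lies beyond 2-fold, and all ACLY probes lie left of the band after serotonin.

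FASN, the multifunctional synthase that makes palmitate, was lower in pMA than in PIP cells. The representing probe, at base 7914, had levels of 5.43 in PIP cells, 4.79 in pMA, 4.68 after serotonin and 4.99 after TNF-α. PIP was the high array, by 0.45 over the next, and the order among the pMA arrays stayed within the spot error from each to its neighbour. The log2 ratio of pMA to PIP cells was -0.64 at base 7914, -0.81 at base 406, a faint probe with intensities of 37.3 to 70.2, and -0.05 at base 7111, within the spot error. At base 7914 it kept its sign in all 9 ways of processing, from -0.99 to -0.22, and 9.07% of all gene names had a lower ratio.

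After the stimuli FASN moved little. Serotonin gave -0.11, which turned to 0.02 with scaling to the spike-in controls, and TNF-α gave 0.20, within the spot error and above 0 in all 9 settings. The probe at base 406 read -0.09 after TNF-α, against 0.15 and 0.20 at the others. The FASN probe at base 7111, which differed least between pMA and PIP cells, is:
FASN at base 7111: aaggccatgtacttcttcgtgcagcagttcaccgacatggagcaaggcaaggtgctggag

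ME1, the cytosolic malic enzyme, was lower after TNF-α. The representing probe, at base 1985, had levels of 3.02 in PIP cells, 3.17 in pMA, 3.21 after serotonin and 2.84 after TNF-α. No array differed from its neighbour in this order by more than the spot error, but TNF-α, the lowest, lay 0.33 under pMA and 0.36 under serotonin. The second probe, at base 3008, gave -0.30 after TNF-α. On differentiation the probes read 0.15 and -0.01 and after serotonin 0.03 and -0.06, all within the spot error.

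SCD, which makes oleate from stearate, was the most densely measured gene. The representing probe, at base 5044, had levels of 5.94 in PIP cells, 5.55 in pMA, 5.07 after serotonin and 5.34 after TNF-α. PIP was the high array and serotonin the low one. The other probes that start beyond base 4000 followed the same sequence, PIP above pMA, pMA above TNF-α and TNF-α above serotonin, at levels from 1.40 to 5.76. The exception was the probe at base 395, the only one in the first part of the transcript, whose levels of -0.82, -0.92, -1.02 and -1.15 in PIP cells, pMA, serotonin and TNF-α put TNF-α lowest, though each step between neighbours was within the spot error.

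All 9 SCD probes were lower in pMA than in PIP cells, with log2 ratios from -0.95 at base 4084 to -0.09 at base 395. The direction of the representing probe, -0.39, turned to 0.03 with scaling to the spike-in controls, a scaling that moved the median of all gene names from 0.12 to 0.56; relative to that median SCD was lower in all 9 settings, by log2 differences from -0.82 to -0.31. The ratios of the 8 probes past base 4000 became smaller in size toward the end of the transcript. After serotonin all 9 probes were again lower than in unstimulated pMA, from -0.67 to -0.11, and after TNF-α from -0.24 to -0.05, with 8 of the 9 within the spot error.

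These 9 probes are not 9 independent readings, because probes printed from overlapping stretches read the same RNA. The probes at bases 4745 and 4785 share 21 bases and those at 4958 and 4962 share 27. The shared stretches and the probe at base 395, which differed from the others, are:
SCD shared by 4745 and 4785: gaactgtgtccaccatgaacc
SCD shared by 4958 and 4962: tagttatttgtggcctaagaataattt
SCD at base 395: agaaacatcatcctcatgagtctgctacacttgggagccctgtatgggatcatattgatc

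**Figure D3:**
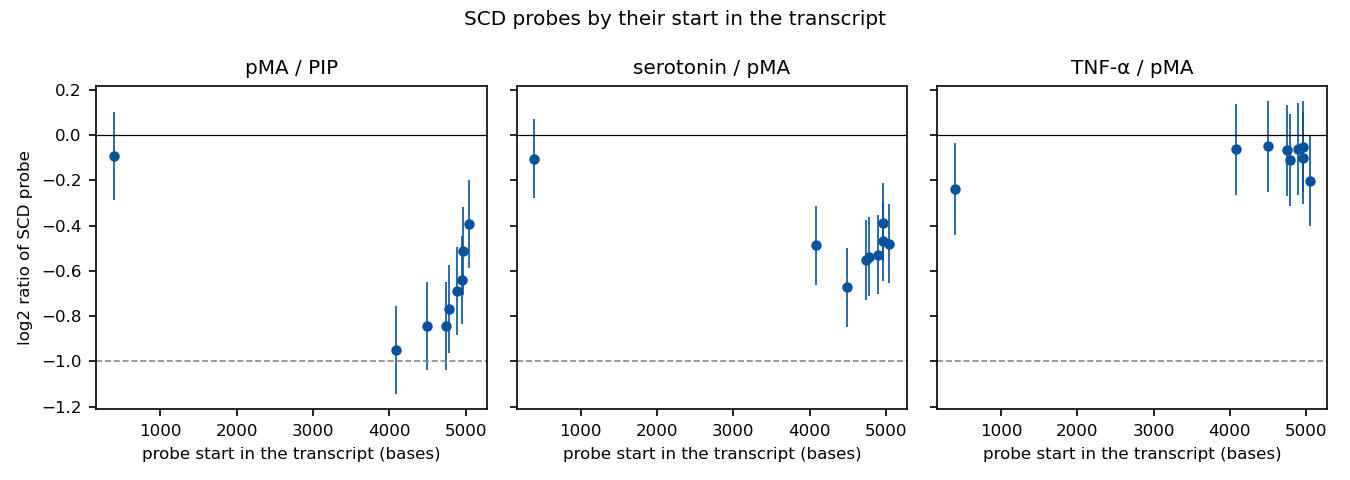
Log2 ratio of each SCD probe (vertical axis) by its start in the transcript in bases (horizontal axis), in the comparisons of pMA with PIP cells and of each stimulus with pMA. Bars are the standard deviation of a ratio from repeated spots; on differentiation the probes run from -0.95 at base 4084 to -0.39 at base 5044 with the probe at base 395 near 0, and none reaches the dashed line at 2-fold.

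FADS1 and FADS2, the Δ5 and Δ6 desaturases, lie side by side in the pig genome (assembly Sscrofa11.1 of RefSeq), with 0 genes between them. FADS2, with 1 probe at base 867, had levels of -0.95 in PIP cells, -0.32 in pMA, -0.66 after serotonin and -0.22 after TNF-α. PIP was low and TNF-α and pMA were high, 0.10 apart, with serotonin between. The log2 ratios were 0.63 on differentiation, -0.34 after serotonin and 0.10 after TNF-α, the last within the spot error, and each kept its sign in all 9 settings.

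The FADS1 probes, which were drawn from different transcript records, differed on differentiation. At base 855 the levels were -0.67, 0.21, 0.01 and 0.06 in PIP cells, pMA, serotonin and TNF-α, a ratio of 0.88 for pMA to PIP cells. At base 3273, the representing probe, they were 0.65, 0.51, 0.57 and 0.75, a ratio of -0.14 within the spot error. The probe at base 855 holds a stretch that FADS2 also has. Aligned along it, the probes match at 23 of 40 bases, with an unbroken run of 16 in capitals:
FADS1 at base 855: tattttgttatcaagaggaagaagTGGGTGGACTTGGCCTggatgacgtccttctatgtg
FADS2 at base 867: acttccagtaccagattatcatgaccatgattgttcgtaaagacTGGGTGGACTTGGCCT

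Whether either probe also bound the other transcript was not tested. After serotonin the FADS1 probes read -0.20 and 0.06, and after TNF-α -0.15 and 0.24, opposite in sign within each comparison. A direction for FADS1 is therefore not given.

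SREBF1, the regulator that switches on the enzymes above, was lower after both stimuli. The representing probe, at base 3590, had levels of 4.20 in PIP cells, 4.21 in pMA, 3.74 after serotonin and 3.84 after TNF-α. G and C make up 81.7% of its bases, against 66.7% at base 297 and 35.0% to 55.0% in the probes of the other lipogenic genes. Any effect of this composition on its values was not tested. PIP and pMA were the high arrays and did not differ, and the stimulated arrays were the low ones, 0.10 apart and within the spot error. The log2 ratio was -0.47 after serotonin and -0.37 after TNF-α, and 16.4% and 11.4% of all gene names had lower ones. At base 297 the ratios were -0.39 and -0.17, the second within the spot error, and on differentiation this probe read 0.31 where the other read 0.00. Both stimulus ratios stayed below 0 in all 9 settings, while that on differentiation ran from -0.35 to 0.42. The probe at base 297 is:
SREBF1 at base 297: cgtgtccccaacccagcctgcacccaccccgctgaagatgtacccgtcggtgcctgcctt

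Over the measured genes the median log2 ratio of pMA to PIP cells was 0.08, with 5 genes above 0 and 3 below, next to a median of 0.12 over all gene names. After serotonin it was -0.11 with 4 above and 5 below, next to 0.01, and after TNF-α -0.20 with 4 and 5, next to 0.01. The genes did not share 1 direction in any of these comparisons. By the representing probes, ACLY, SCD, SREBF1 and FADS2 were lower and ACACA higher after serotonin in all 9 settings. After TNF-α ACACA, ACLY, ME1, SREBF1 and SCD were lower and FASN, FADS1 and FADS2 higher in all 9. Of these TNF-α ratios, SCD (-0.20), FASN (0.20) and FADS2 (0.10) lay within the spot error, and the probes of FASN and of FADS1 differed in sign. On differentiation FASN was lower and ACACA and FADS2 higher in all 9. The settings reuse the same arrays and are not replicates. Between the stimulated arrays the median was -0.28, next to -0.04 over all names, with ACACA and ME1 higher after serotonin and the other 7 higher after TNF-α, SREBF1 except after scaling to the array median (0.02).

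**Figure D4:**
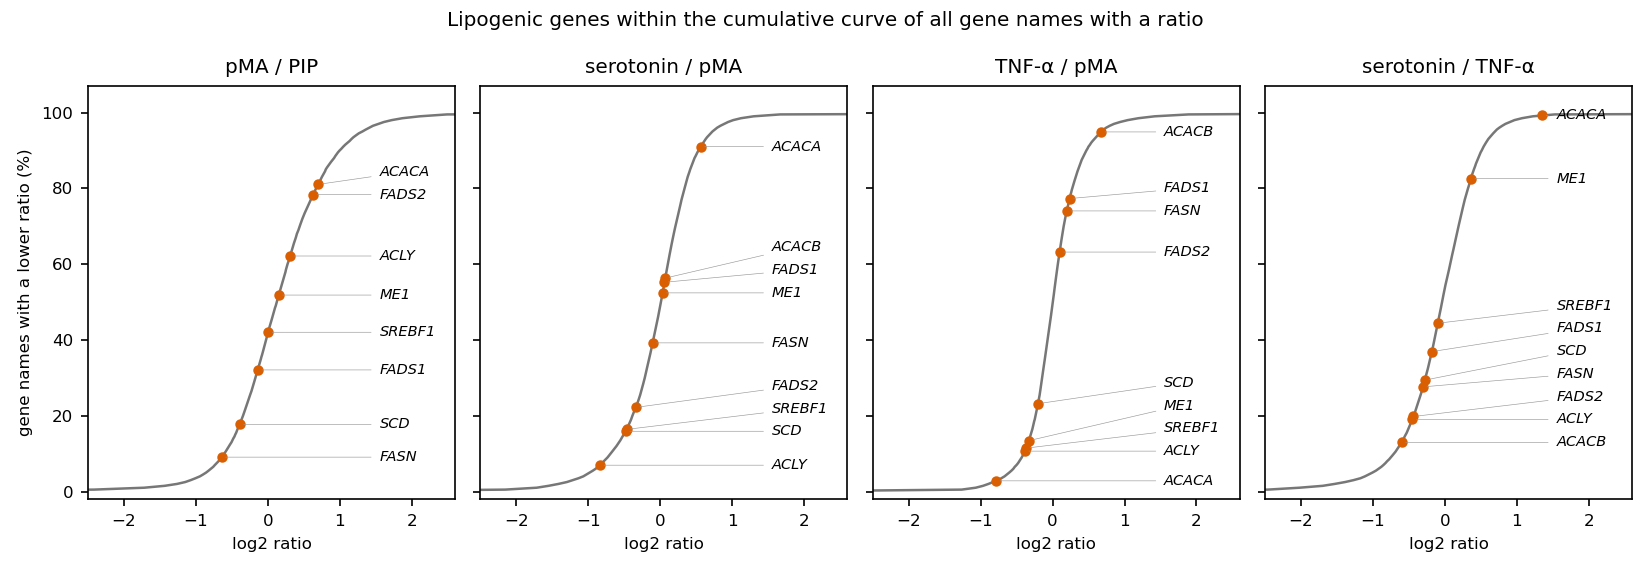
Cumulative curve of all gene names with a ratio, 1 comparison a panel, with the log2 ratio on the horizontal axis and the percent of gene names with a lower ratio on the vertical axis. Orange points are the lipogenic genes, each by its representing probe only. ACACA stands at 2.82% after TNF-α and at 99.3% between serotonin and TNF-α, and ACLY at 6.94% after serotonin.

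Of 72 further genes listed around the pathway, 40 were on the array under those names and 39 had a ratio in each comparison. None rose or fell 2-fold in any of the 4. Beside this, 9.95% of all gene names rose and 3.56% fell 2-fold on differentiation, and 2.09% and 4.74% after serotonin. The shares were 2.22% and 1.34% after TNF-α, and 1.83% and 5.08% for serotonin against TNF-α. Of all gene names, 58.0% were above 0 in pMA against PIP cells, 51.1% after serotonin and 50.8% after TNF-α, which the counts of direction below stand beside. The list of acetyl-CoA and NADPH supply, genes that feed carbon and reducing power into the synthesis, had 10 members on the array. In pMA 8 of the 10 were lower than in PIP cells, with a median of -0.35 that became 0.07 with scaling to the spike-in controls. After serotonin 9 of the 10 were higher, with a median of 0.37. Over the 9 settings the count was 8 to 9 and the median lay between 0.24 and 0.49. Among those higher, CS at 0.05 was within the spot error, with only 2 of its 7 probes above 0. After TNF-α 5 genes were higher and 5 lower, with a median of 0.02.

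Single genes of these lists were picked out after their values were seen. PGD, an NADPH-forming enzyme of the pentose phosphate pathway, had levels of 6.00 in PIP cells, 5.50 in pMA, 6.48 after serotonin and 5.49 after TNF-α, so that serotonin was the high array with a log2 ratio of 0.98 to pMA. This ratio ran from 0.97 to 1.13 over the settings and so passed 2-fold in some of them. TKT and TALDO1, which act in the same pathway, were both higher after serotonin by 0.59. PGD and TALDO1 rest on 1 probe each. On this array ACLY, SCD and SREBF1 were lower, but ACACA was higher (0.56 and 0.33 at its probes). Of the 9 lipogenic genes with a ratio, 4 were above 0 and 5 below.

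SREBP processing, the escort, retention and cleavage of the SREBF1 product, had 5 members with a ratio, and 4 of the 5 were below 0 in each comparison with PIP or pMA, with medians of -0.22, -0.03 and -0.06, each of which changed sign in at least 1 of the 9 settings. INSIG1, which holds the SREBP complex in the endoplasmic reticulum, was at -0.26, -0.11 and -0.06, but its second probe read -0.90, -0.21 and 0.34, of the other sign after TNF-α. Of 13 other regulators, 9 were higher in pMA than in PIP cells, 7 after serotonin and 3 after TNF-α, with medians of 0.11, 0.01 and -0.10 that also changed sign in at least 1 setting. XBP1, a transcription factor of the secretory pathway, was lower after serotonin by a log2 ratio of -0.58, with its 6 probes from -0.62 to -0.57.

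Elongation and desaturation partners had medians of -0.07, 0.12 and -0.12 over 6 genes and acyl-CoA formation 0.11, -0.17 and -0.02 over 5 genes, in the same order of comparisons; all but the -0.12 changed sign in at least 1 setting. Among the former, the desaturase SCD5 was higher in pMA by 0.81 and lower after serotonin (-0.69) and TNF-α (-0.54). Its second probe gave 0.68, -0.80 and -0.47. Among the latter, ACSL3, which activates fatty acids for lipid synthesis, was lower after serotonin (-0.50) and TNF-α (-0.88), and at 0.11 on differentiation. ACSL4, which prefers arachidonate, was higher in all 3 comparisons, by 0.74, 0.41 and 0.53.

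**Figure D5:**
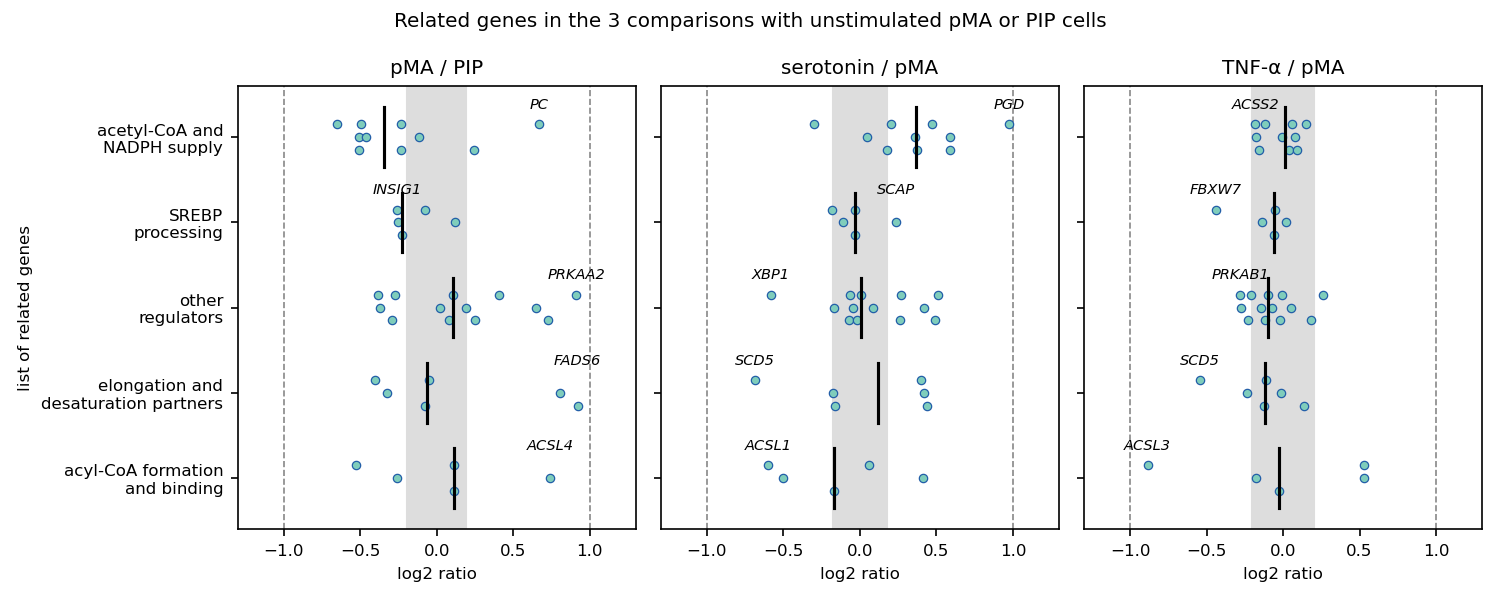
Log2 ratios (horizontal axis) of the genes related to the pathway, 1 list a row and 1 comparison a panel. Points are genes by their representing probe, black bars the list medians, grey bands the spot error and dashed lines 2-fold, and the name is that of the gene farthest from 0; all points lie within 2-fold and 9 of the 10 acetyl-CoA and NADPH supply genes sit right of 0 after serotonin, with PGD at 0.98.

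Direction on differentiation depended on the scaling. The share of gene names that rose among those past 2-fold was 73.6% as scaled here, 54.8% after quantile normalization, 34.2% after scaling to the array median and 93.8% after scaling to the spike-in controls, whose median lay lower on the pMA array by a log2 difference of -0.42. The median of all gene names moved from 0.12 to 0.04, -0.22 and 0.56. For serotonin the share was 30.6%, against 34.2%, 35.3% and 46.9%, and for TNF-α 62.4%, against 49.3%, 50.3% and 76.8%. For serotonin against TNF-α it was 26.5%, against 39.5%, 40.4% and 28.1%.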

How the data were processed

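Total RNA pooled within each of 4 conditions was labelled with Cy3 from 200 ng and hybridised to 1 porcine oligonucleotide array per condition, all on 1 slide. The methods also name a mouse array and a 2-colour porcine array, which the scanner files do not match. The deposited scanner files hold intensities that the authors extracted with Agilent Feature Extraction 10.7.3.1, as background-subtracted processed signals. The series table deposited by the authors holds the same signal divided by 1 constant per array and was used as an alternative. The genome build behind the array design is not given in the sources used here, so no coordinates are given, and the RefSeq table (Sscrofa11.1) served only for which genes are neighbours.

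Control spots and outlier spots (1 to 12 per array) were left out, repeated spots of a probe were averaged, log2 was taken and each array's 75th percentile subtracted. The probe with the highest mean represented a gene. Where only 1 of 2 arrays gave a signal well above background, the dim value was taken as the higher of itself and that array's faintest signal well above background, and the ratio is a lower bound. The spot error is the standard deviation over 50 probes with repeated spots. The number of arrays, 1 per condition, limits the precision, and no p-value was calculated. The rule for naming was all lipogenic genes with every probe, and list and marker genes past 2-fold. It added the 3 symbols nearest to the member whose representing probe had the widest range. No list gene passed 2-fold, and those named were picked after their values were seen. The genes and lists were chosen with earlier results of these data known. Scaling, background correction, filter, probe choice, value source and threshold were varied, and scaling to the spike-in controls was added after seeing the data. Ratios were calculated in Python 3.11.15 with numpy 2.4.6 and pandas 2.3.3, normexp (offset 50) and quantile normalization in R 4.3.3 with limma 3.58.1, and the code was tested on simulated data.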

Additional observations from a re-analysis of the deposited data

How the results depend on the processing

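No paired analysis was possible because each condition had 1 array, and for the same reason no array could be left out. The median log2 ratio of pMA to PIP cells over the lipogenic genes moved from 0.08 to -0.20 with scaling to the array median and to 0.50 with scaling to the spike-in controls, as the median of all gene names did. The count past 2-fold in that comparison became 2 with the spike-in scaling. At a 1.5-fold threshold the counts were 3 for pMA against PIP cells, 1 after serotonin, 2 after TNF-α and 2 for serotonin against TNF-α. With normexp the count for serotonin against TNF-α was 0 in place of 1; the cause was not tested. Of 276 values of single genes under another setting, 78 equalled the first value, most because the filters on dim probes do not touch a probe that is bright on all arrays. Of the other 198, 172 stayed within the spot error and 26 moved further. Only 1 value passed 2-fold as first scaled, that of ACACA for serotonin against TNF-α. It kept its sign, from 0.79 to 1.47. ACACA and ACACB, with the faintest representing probes, are limited by signal over background.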

Other observations

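A few probes on the array carried the description of a lipogenic gene under another name and were not counted above. A probe described as FADS2 was well above background on all 4 arrays, with log2 ratios of 0.49 for pMA to PIP cells, 0.19 after serotonin and 0.38 after TNF-α. Its value after serotonin was opposite in sign to the -0.34 of the named FADS2 probe. A probe described as the SCD gene read -0.54, 0.24 and 0.21 in the same comparisons, so that its values after the stimuli were above 0 where those of the 9 named SCD probes were below. A probe described as SREBP-1 was not well above background on any array.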
